A study of Rattus norvegicus with 6 samples.

Results

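The genes described here are 10 genes of the circadian clock, Clock, Per1, Per2, Per3, Cry1, Cry2, Nr1d1, Nr1d2, Dbp and Tef, in the pituitary gland of adult rats. They were taken by symbol from the gene count tables, and all 10 of 10 were present among 33294 gene symbols, of which 17292 had enough counts to be tested. The questions were whether the clock genes differed between control rats and rats whose dams had received nicotine, and whether the 6 libraries held them at the same point of the daily cycle.

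All 6 libraries were made from the pituitary gland of male Sprague-Dawley rats aged 11 weeks, with 3 rats in the nicotine group and 3 in the control group. The dams carried a 28-day osmotic minipump under the skin, filled with nicotine tartrate at 6 mg/kg/day in saline for the nicotine group and with saline alone for the control group. The labels put birth 13 days after the pump was placed, on gestational day 19, so the pump could still release its content after birth. Before tissue collection every rat was anesthetized with isoflurane and then given an overdose of pentobarbital. The time of day at which each rat was killed, the light cycle and the litter each rat came from are not given in the sources used here. If rats shared a litter, the p-values below measure the spread between these rats and not between litters.

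A doubt about the labels bears on the direction of every difference between groups. The read numbers that the study lists per library do not match the count totals under these labels. Each library labelled nicotine holds more counts than the reads listed for it, and all 6 totals lie under the listed reads, in the same order, only when the group names are exchanged. The group names below are those of the labels. An exchange would turn the sign of each fold change and would change no p-value, no count of overlaps and no difference between single libraries.

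Count totals ranged from 28318383 to 85977002 per library, and nicotine replicate 2 was the deepest. The 10 clock genes had between 139 and 19699 counts per library, so counting error was small beside the differences described below. Levels are given as CPM, that is counts scaled to a common library total with TMM factors. The hormone genes that define the gland were abundant in all 6 libraries, with growth hormone Gh1 at 52429 to 115790 CPM and prolactin Prl at 17547 to 38038 CPM. In a gland made of several cell types, fewer cells of a type and less RNA per cell cannot be told apart.

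The circadian clock is a feedback loop of transcription that runs in nearly every tissue, the pituitary included. CLOCK or NPAS2 pairs with ARNTL, also named BMAL1, binds E-box sequences and activates the Per, Cry, Nr1d and PAR bZIP genes, and the PER and CRY proteins then inhibit this pair. NR1D1 and NR1D2 repress Arntl, Clock and Npas2 through RORE sequences, so that in tissues outside the brain Dbp, Tef, Nr1d1, Nr1d2 and Per3 peak at about the opposite time of day to Arntl, Npas2 and Clock. Per1 and Per2 are also induced rapidly by cAMP, glucocorticoids and other stimuli.

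Promoters were looked up for all clock genes, because clock genes are known to be controlled through short sequences near their starts. RefSeq promoters on the GRCr8 build, running from 250 bases before to 50 bases after a transcription start, were found for 22 of 28 clock genes and for 9 of the 10 members. Cry1 had no entry, and neither had Hlf, Csnk1d, Cipc, Wee1 and Nampt. The counts were made on the rn7 build, so the positions serve only to place the sequences. Each was searched on both strands for the E-box CACGTG, the E-prime box CACGTT, the D-box TTATGTAA or TTACGTAA, the cAMP response element TGACGTCA and the RORE TAGGTCA or TGGGTCA. Shown here are 5 promoters, printed 5′ to 3′ on the strand of the gene, with any match in capitals. They show each motif that was found, with Tef, the downstream start of Nr1d1 and Ciart for the E-box, Per2 for the E-prime box and the D-box, and Arntl for the RORE.
Tef (chr7:115206577-115206876, plus strand): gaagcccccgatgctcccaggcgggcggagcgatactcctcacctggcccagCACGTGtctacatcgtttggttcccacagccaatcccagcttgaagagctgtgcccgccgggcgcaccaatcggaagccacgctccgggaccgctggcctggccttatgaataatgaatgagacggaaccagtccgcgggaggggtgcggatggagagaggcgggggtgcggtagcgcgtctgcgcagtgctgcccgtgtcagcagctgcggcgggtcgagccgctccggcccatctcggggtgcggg
Nr1d1, second start (chr10:84229405-84229704, minus strand): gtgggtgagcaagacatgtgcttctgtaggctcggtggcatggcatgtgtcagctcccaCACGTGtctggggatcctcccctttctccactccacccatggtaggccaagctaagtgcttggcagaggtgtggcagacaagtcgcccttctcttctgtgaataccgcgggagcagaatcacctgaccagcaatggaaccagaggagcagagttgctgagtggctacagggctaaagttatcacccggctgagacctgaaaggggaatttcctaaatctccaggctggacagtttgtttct
Ciart (chr2:186112197-186112496, minus strand): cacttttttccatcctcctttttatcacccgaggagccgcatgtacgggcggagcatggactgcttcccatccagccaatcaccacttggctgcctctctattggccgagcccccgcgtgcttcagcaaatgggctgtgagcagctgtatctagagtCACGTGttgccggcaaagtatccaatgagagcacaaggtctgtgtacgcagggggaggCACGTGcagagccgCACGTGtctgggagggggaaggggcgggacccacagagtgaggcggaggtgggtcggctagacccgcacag
Per2 (chr9:99496944-99497243, minus strand): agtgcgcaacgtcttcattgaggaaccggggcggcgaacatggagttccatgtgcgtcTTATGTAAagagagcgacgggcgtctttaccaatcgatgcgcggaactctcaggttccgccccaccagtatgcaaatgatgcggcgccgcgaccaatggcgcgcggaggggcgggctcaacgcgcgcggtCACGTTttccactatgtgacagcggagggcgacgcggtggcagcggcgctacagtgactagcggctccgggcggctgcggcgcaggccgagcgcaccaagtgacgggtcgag
Arntl, named Bmal1 in RefSeq (chr1:176766078-176766377, plus strand): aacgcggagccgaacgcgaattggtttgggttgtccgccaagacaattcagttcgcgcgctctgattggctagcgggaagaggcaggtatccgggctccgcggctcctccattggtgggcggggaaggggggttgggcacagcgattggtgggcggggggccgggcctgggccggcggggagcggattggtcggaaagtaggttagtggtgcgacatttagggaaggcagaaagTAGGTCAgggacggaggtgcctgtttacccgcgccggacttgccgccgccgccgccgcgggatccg

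The E-box of Tef began at position -198 from the start and that of the second Nr1d1 start at -191. Ciart, a repressor of CLOCK and ARNTL, held 3 E-boxes at -93, -35 and -21. Among all clock genes looked up, 5 of 24 promoters (20.8%) held an E-box, Bhlhe40 and Bhlhe41 being the others, while 6.42% of 33469 rat promoters did. An E-prime box was found in Per2 at -62, and on the other strand in Cry2 at -212, in the first Nr1d1 start at -174 and in Arntl2 at -168, against 4.83% of all promoters. Per2 held the only D-box, at -192, found in 1.01% of all promoters. Arntl held the only RORE, at -16, found in 6.6% of all promoters, and 0 of 24 held the cAMP response element, found in 1.83%. The promoters of Dbp, Nr1d2, Per3, Per1 and Clock held none of these motifs. Neither did those of Npas2, Nfil3, Rora, Rorb, Csnk1e, Fbxl21, Btrc and Usp2. Of these, Dbp, Nr1d2, Per3, Btrc and Usp2 were highest in nicotine replicate 2 and Npas2, Nfil3 and Rora lowest. Clock, Per1, Rorb, Csnk1e and Fbxl21 had their extremes in other libraries. Among the genes with a motif, Tef, Nr1d1, Ciart, Cry2, Bhlhe40 and Bhlhe41 were highest and Arntl lowest in nicotine replicate 2. Per2 and Arntl2 were highest in control replicate 2. No match says only that these letters are not in this window.

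In the comparison of the groups, 0 of the 10 clock genes passed edgeR's quasi-likelihood test at the thresholds of the study, which are 0.1 for the adjusted p and 1.5 for the fold change. Of all 17292 genes 0% passed them, so the count among the clock genes stands at the background. DESeq2 called 62 genes and limma voom 1 gene on the same counts, with 0 clock genes among them. At an unadjusted p under 0.05 stood 0 of 10 clock genes and 6.14% of all genes. The 3 nicotine libraries overlapped the 3 control libraries for all 10 clock genes, while 11.3% of all genes did not overlap. On the log2 scale 7 of 10 were higher in the nicotine group and 3 lower, with a median of 0.13, and the median over all genes tested was 0.0070. Adjusted p in edgeR lay between 0.821 and 0.984 for the 10 genes.

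Clock, the partner of ARNTL in the activating pair, stood at 57.2, 52.1 and 47.6 CPM in nicotine replicates 1, 2 and 3 and at 43.9, 47.7 and 54.7 CPM in control replicates 1, 2 and 3. Levels differed by at most 1.30-fold between any libraries, and the groups overlapped. The means were 52.3 ± 4.81 CPM with nicotine and 48.8 ± 5.50 CPM without (SD, n = 3 each), and the log2 fold change was 0.10 with a standard error of 0.16.

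Arntl, the partner of Clock, varied far more between rats. It stood at 22.0, 11.4 and 32.4 CPM in the nicotine libraries and at 16.2, 17.0 and 37.8 CPM in the control libraries. Nicotine replicate 2 was lowest, and nicotine replicate 3 and control replicate 3 were both well above the rest. Npas2, which can replace CLOCK as the partner of ARNTL, held 4.33, 1.38 and 7.55 CPM with nicotine and 3.03, 3.16 and 5.79 CPM in controls. The order of the libraries at the 2 ends was close to that of Arntl, with nicotine replicate 2 at the bottom.

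Dbp encodes a PAR bZIP activator that binds D-boxes and is among the most strongly cycling genes of peripheral tissues. Its level was 70.6, 214 and 55.9 CPM in nicotine replicates 1, 2 and 3 and 115, 87.7 and 69.2 CPM in control replicates 1, 2 and 3. Nicotine replicate 2 stood above every other rat, while the other nicotine libraries were near or below the lowest control. The nicotine mean was 113 ± 87.2 CPM and the control mean 90.5 ± 22.9 CPM (SD, n = 3 each). This corresponds to a log2 fold change of 0.33 with a standard error of 0.42 and an adjusted p of 0.892 in edgeR. Its exact two-sided permutation p was 0.90, where the smallest p that 3 against 3 libraries allow is 0.1.

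Tef, another PAR bZIP factor that binds the same D-boxes as DBP, ordered the libraries almost as Dbp did. It stood at 78.4, 192 and 62.9 CPM with nicotine and at 120, 99.3 and 82.9 CPM in controls. Nicotine replicate 2 was again highest and nicotine replicate 3 lowest, a 3.06-fold range. The log2 fold change between groups was 0.14 with a standard error of 0.35. Hlf, the third PAR bZIP gene, was also highest in nicotine replicate 2, where it held 51.7 CPM, and ranged from 23.3 to 37.4 CPM in the other libraries. Nfil3, a repressor that competes for D-boxes, showed the inverse, with 4.96 CPM in nicotine replicate 2 and 7.42 to 12.0 CPM elsewhere.

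Nr1d1 and Nr1d2 encode REV-ERB alpha and beta, the heme-binding receptors that repress Arntl. Nr1d1 stood at 29.9, 89.4 and 50.5 CPM with nicotine and at 38.7, 36.1 and 42.6 CPM in controls. The controls lay within a narrow band and the nicotine libraries both above and below it. With group means of 56.6 ± 30.2 CPM (SD, n = 3) and 39.1 ± 3.29 CPM (SD, n = 3), its log2 fold change of 0.53, standard error 0.31, was the largest of the 7 positive ones. Adjusted p was 0.821 in edgeR, and the log2 fold change was 0.03 without nicotine replicate 2 but 0.84 when replicate 1 of that group was left out. Nr1d1 overlaps the thyroid hormone receptor gene Thra on the opposite strand, and whether the counting used the strand is not stated. Thra itself ranged only 1.15-fold across libraries, against 2.99-fold for Nr1d1.

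Nr1d2 stood at 105, 207 and 80.7 CPM with nicotine and at 157, 129 and 119 CPM in controls. Its libraries fell in nearly the order of Dbp, with nicotine replicate 2 highest and nicotine replicate 3 lowest. The means of 131 ± 67.1 CPM and 135 ± 19.6 CPM (SD, n = 3 each) gave a log2 fold change of -0.04, standard error 0.30.

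The Per genes encode the repressors that, with the CRY proteins, close the loop. Per1 stood at 25.8, 17.7 and 10.4 CPM with nicotine and at 21.6, 51.1 and 14.3 CPM in controls. Control replicate 2 stood alone at the top, and nicotine replicate 3 was 4.89-fold below it, the widest range of the 10 genes. Between the groups Per1 had a log2 fold change of -0.70 with a standard error of 0.43 and an adjusted p of 0.827 in edgeR, and without control replicate 2 it was 0.00 to 2 decimals. Per2 was likewise highest in control replicate 2, with 11.1 CPM beside 5.24 and 3.67 CPM in the other controls and 10.3, 9.38 and 5.37 CPM with nicotine. Its log2 fold change was 0.30 with a standard error of 0.38, and it was 0.91 without control replicate 2 and 0.0089 without control replicate 3.

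Per3, the last member of the Per family, did not share that high library. It stood at 8.25, 13.0 and 7.72 CPM with nicotine and at 8.97, 9.21 and 4.81 CPM in controls. Nicotine replicate 2 was highest and control replicate 3 lowest. The log2 fold change of Per3 was 0.34, standard error 0.29, with an adjusted p of 0.848 in edgeR, and it was 0.05 without nicotine replicate 2 and 0.09 without control replicate 3.

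Cry1, the repressor that peaks late in the cycle, was highest in control replicate 3 at 24.2 CPM, where Arntl was highest too. The other controls both held 13.1 CPM, and the nicotine libraries 13.9, 17.8 and 15.9 CPM. Cry2 was highest in nicotine replicate 2 and control replicate 2, with 32.3, 44.5 and 24.0 CPM under nicotine and 25.0, 41.3 and 26.7 CPM in controls. Log2 fold changes were -0.08, standard error 0.25, for Cry1 and 0.11, standard error 0.25, for Cry2. Gene models without a known product overlap Clock, Per2, Cry1 and Cry2 in the RefSeq annotation, and reads shared with them cannot be told apart here.

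**Figure D1:**
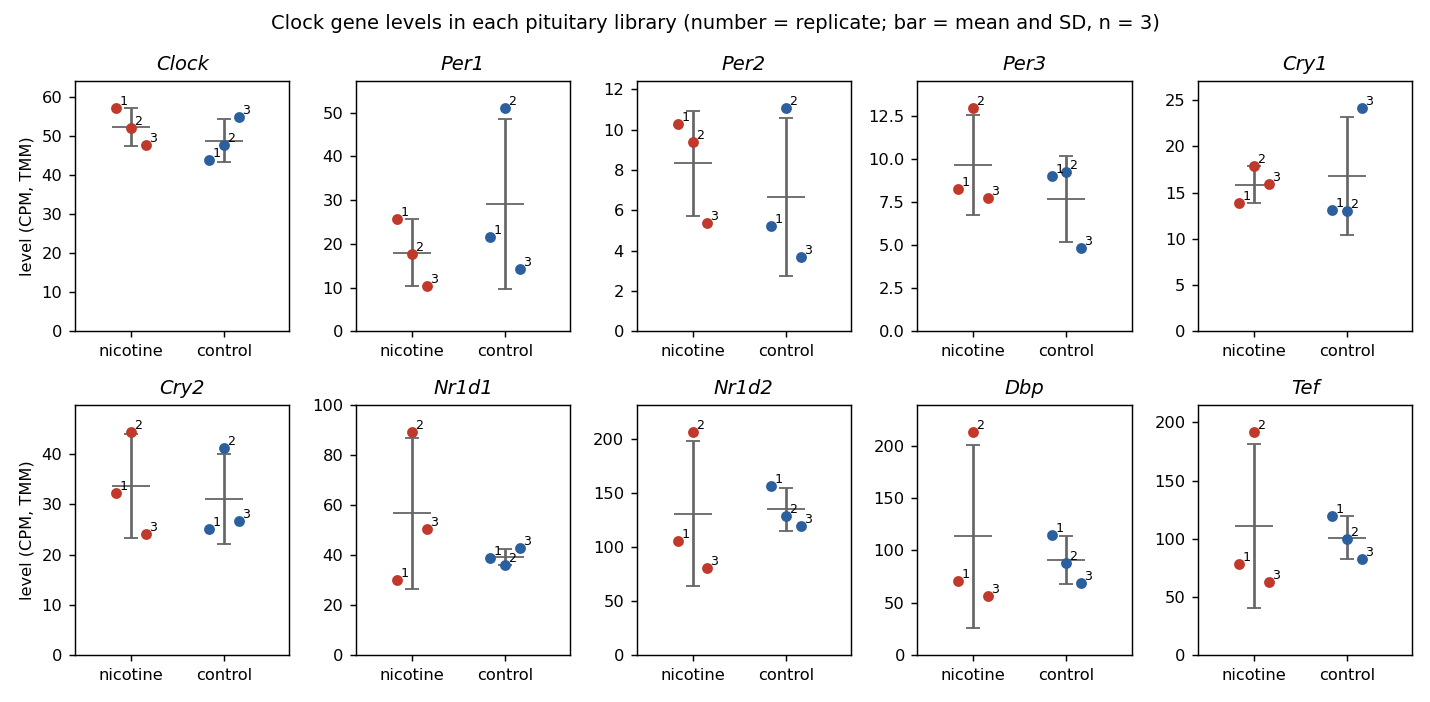
Level of each of the 10 clock genes in CPM (y axis, from 0) for the nicotine and control groups; each numbered point is 1 rat, and the bars give the mean and SD of 3 rats. Nicotine replicate 2 is the highest point for 6 genes, control replicate 2 for Per1 and Per2, and for every gene the groups overlap.

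The widest differences were those between single libraries. Nicotine replicate 2 was the highest library for 6 of 10 clock genes (60%), and it was the highest for 26.9% of all genes tested. It was lowest for 0 of 10, and it was lowest for 26.8% of all genes tested. Nicotine replicate 3 was lowest for 5 of the 10 and highest for 0, and its shares over all genes were not computed. These are counts over genes of 1 pathway, which are not independent of each other.

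To place the libraries on 1 scale, a clock contrast was computed for each as the mean log2 CPM of Dbp, Nr1d1, Nr1d2, Per3 and Tef minus that of Arntl, Npas2 and Clock, centred on the 6 libraries. Nicotine replicate 2 had a contrast of 1.65 and control replicates 1 and 2 had 0.44 and 0.16. Nicotine replicate 1 stood at -0.48, control replicate 3 at -0.86 and nicotine replicate 3 at -0.91. The 2 ends were thus both nicotine libraries, and the controls lay between them. The gap of 1.20 between nicotine replicate 2 and the next library was the widest. Each rat gave only 1 library, so apart from counting error a gap has no error of its own. The gap of 0.05 between control replicate 3 and nicotine replicate 3 was as large as its counting error of 0.05, while the other gaps were 0.28 or more with counting errors of 0.06 to 0.08.

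Both set averages differed between the libraries, though not every gene in them did. In nicotine replicate 2 the 5 genes of the first set were on average 0.90 above the mean of the libraries on the log2 scale and the 3 genes of the second set 0.74 below it. In nicotine replicate 3 the same averages were -0.39 and 0.52, and in control replicate 3 they were -0.32 and 0.54. Clock added little to its set, at 0.05 in nicotine replicate 2 and -0.08 in nicotine replicate 3, so that Arntl and Npas2 carried it. Nr1d1 was 0.17 above its mean in nicotine replicate 3, against the direction of its set. The ratio of Dbp to Arntl, used only to compare libraries since counts are not scaled by gene length, was 18.7 in nicotine replicate 2 and 1.73 in nicotine replicate 3. It was 7.08, 5.15 and 1.83 in control replicates 1, 2 and 3 and 3.21 in nicotine replicate 1.

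The group means of the contrast were 0.09 ± 1.37 (SD, n = 3) with nicotine and -0.09 ± 0.69 (SD, n = 3) in controls, a difference of 0.17. That difference was well within the spread between rats, and it was -0.61 without nicotine replicate 2. Across all 6 libraries the contrast spanned 2.56 on the log2 scale, and it spanned 1.36 without nicotine replicate 2. Nicotine replicate 2 was the deepest library, and the span was as large, at 2.65, with every library thinned to the smallest total.

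**Figure D2:**
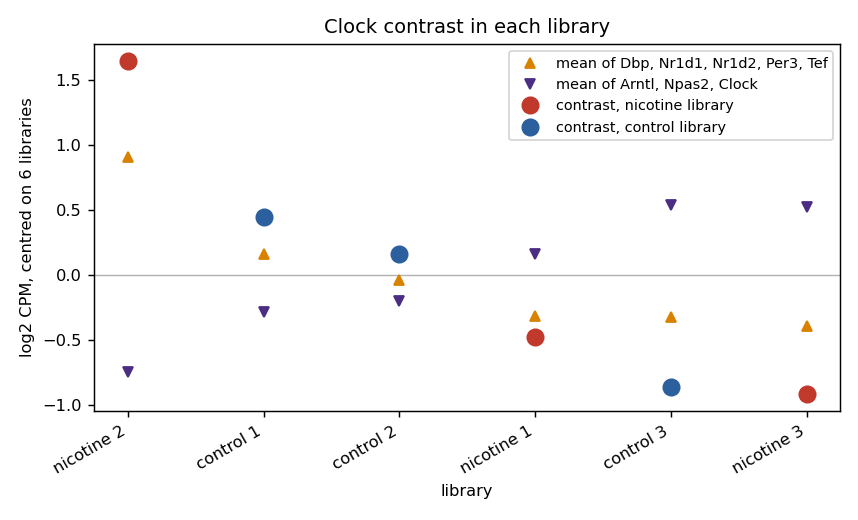
Clock contrast of each library (large circles, y axis in log2 CPM centred on 6 libraries), with the mean deviation of Dbp, Nr1d1, Nr1d2, Per3 and Tef (upward triangles) and of Arntl, Npas2 and Clock (downward triangles). Nicotine replicate 2 lies at 1.65, and nicotine replicate 3 and control replicate 3 lie together at -0.91 and -0.86.

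Across the 6 libraries Tef and Nr1d2 followed Dbp most closely among the 10 genes. Pearson's r of log2 CPM with Dbp was 0.99 for Tef (Spearman's rho 0.94) and 0.96 for Nr1d2 (rho 0.94). Without nicotine replicate 2 and control replicate 1, the libraries farthest from the median of Dbp, r was still 0.98 and 0.92. Over all genes tested, 244 had an r above 0.9 with Dbp and 218 an r below -0.9. The points share library, depth and cell content, so these values are a description of 6 libraries with no p.

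For the other members r changed more when the pair of libraries named above was left out. For Per3 r was 0.75 (rho 0.89) over 6 libraries and 0.29 without them. For Nr1d1 r was 0.68 (rho 0.09) and turned to -0.64 without them. The Nr1d1 libraries were ordered differently, with nicotine replicate 3 next to the top. The Per1, Per2 and Cry2 values moved the other way, with an r of 0.17 (rho 0.49) for Per1, 0.35 (rho 0.26) for Per2 and 0.64 (rho 0.66) for Cry2 over 6 libraries. Over the remaining 4 libraries r was 0.94, 0.59 and 0.94. Cry1 and Clock had an r of -0.03 and -0.12 over 6 libraries and of -0.33 and 0.01 over 4.

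Outside the 10 genes, Npas2 had an r of -0.97 with Dbp, Nfil3 of -0.96 and Arntl of -0.88. Without nicotine replicate 2 and control replicate 1 these values were -0.96, -0.65 and -0.75. Ciart, the repressor with 3 E-boxes printed above, had an r of 0.96, and of 0.88 without those libraries. It stood at 1.61, 5.13 and 0.793 CPM with nicotine and 2.77, 1.83 and 0.977 CPM in controls, a 6.47-fold range that was the widest of the clock genes measured. Bhlhe40 and Bhlhe41, E-box repressors also known as DEC1 and DEC2, were highest in nicotine replicate 2 as well. Bhlhe40 held 36.9 CPM there and 8.04 to 16.1 CPM in the other libraries, and Bhlhe41 held 120 CPM there and 40.5 to 72.5 CPM in the others. Usp2, a deubiquitinase gene under clock control, was also highest there, at 53.0 CPM. So was Wee1, a cell cycle kinase gene with E-boxes known to bind the clock pair, at 57.5 CPM. Over 6 libraries r with Dbp was 0.85 for Bhlhe40, 0.78 for Bhlhe41, 0.85 for Usp2 and 0.82 for Wee1. Without nicotine replicate 2 and control replicate 1 it was -0.28, -0.16, 0.93 and 0.76 in the same order.

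**Figure D3:**
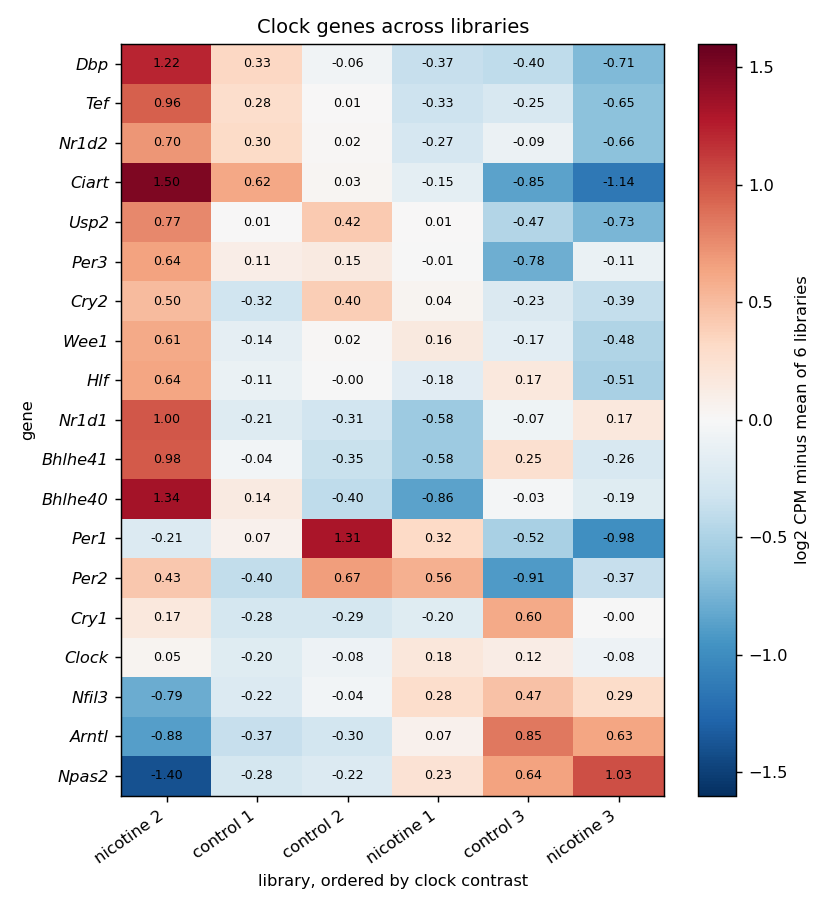
Deviation of a selection of the clock genes (rows) from their means over the 6 libraries (columns, ordered by clock contrast) in log2 CPM, printed in each cell. Arntl2, Rora, Rorb, Csnk1d, Csnk1e, Fbxl21, Btrc, Cipc and Nampt were measured but are not drawn. In nicotine replicate 2 Dbp, Tef, Nr1d1, Ciart and Bhlhe40 lie about 1 or more above their mean and Npas2 lies 1.40 below; Per1 peaks instead in control replicate 2.

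The other clock genes described here passed no threshold between the groups either. Of 15 further genes of the loop, 0 passed in edgeR and 0 in DESeq2, 0 had an unadjusted p under 0.05, and the groups overlapped for all 15. On the log2 scale 11 were higher and 4 lower with nicotine, with a median fold change of 0.13. Adjusted p in edgeR ran from 0.843 to 0.996 for the 15 genes.

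The kinase and ROR receptor genes had narrower ranges than Dbp. Csnk1e, whose kinase phosphorylates PER, ranged 1.25-fold across libraries and Csnk1d 1.73-fold. Rora, which activates Arntl through the RORE, ranged 1.48-fold and Rorb 1.53-fold, while Arntl2 stayed below 1 CPM. Of 3 clock output genes, Usp2, Wee1 and Nampt, 0 passed in edgeR, 2 were higher and 1 lower with nicotine.

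Single rats decided the direction or size of several differences. Without nicotine replicate 2, Dbp changed from a log2 fold change of 0.33 to -0.52, Tef from 0.14 to -0.52, Cry2 from 0.11 to -0.16 and Ciart from 0.52 to -0.63, while Arntl went from -0.11 to 0.19. Nr1d2 went from -0.04 to -0.54. With 2 nicotine libraries left, Dbp, Tef and Nr1d2 had unadjusted p of 0.0278, 0.0149 and 0.00919 and adjusted p of 0.682, 0.629 and 0.592 in edgeR, so 3 of 10 passed the unadjusted threshold and 0 of 10 the adjusted one. Over all genes, 1166 had an unadjusted p under 0.05 in that edgeR fit, beside 1062 of 17292 with all 6 libraries. Other libraries mattered as well. Without nicotine replicate 1 Nr1d1 had a log2 fold change of 0.84 with an unadjusted p of 0.00458, the lowest of any leave-one-out fit of the 10 genes, and Per1 one of -1.04 with 0.0440. Without control replicate 2 the unadjusted p of Per2 was 0.0238, and without control replicate 3 that of Per1 was 0.0260. The adjusted p of these 4 fits lay between 0.542 and 0.957 in edgeR. Over all genes, 1619 had an unadjusted p under 0.05 in edgeR without nicotine replicate 1. The count was 866 without control replicate 2 and 854 without control replicate 3. The genes with enough counts to be tested were chosen anew in each leave-one-out fit. Their number was not recorded, so no share of all genes is given for those fits. Leaving out each library in turn moved the log2 fold change of Dbp from -0.52 to 0.65 and that of Per1 from -1.04 to 0.00.

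**Figure D4:**
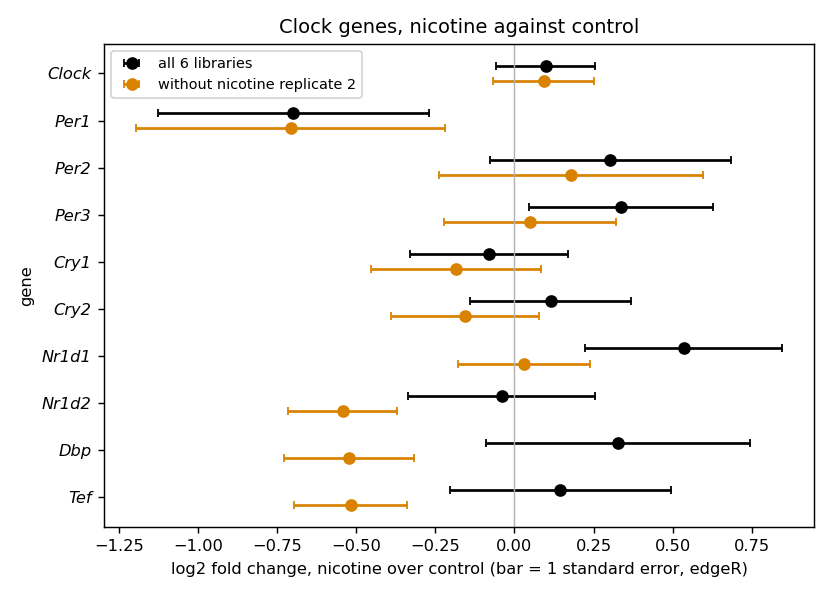
Log2 fold change of each clock gene, nicotine over control (x axis), with 1 standard error from edgeR, over all 6 libraries (black) and without nicotine replicate 2 (orange). Dbp, Tef and Cry2 cross 0 when that library is left out, and Nr1d2 moves from -0.04 to -0.54.

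Spread between rats of one group was wide for most of the 10 genes. The SD of log2 CPM within groups had a median of 0.54 over the 10 genes and 0.27 over all genes tested, and 9 of 10 lay above the latter. It ran from 0.15 for Clock, at percentile 14.0 of all genes, to 0.81 for Per1, at percentile 95.2. Dbp had 0.77, Per2 0.67 and Tef 0.63. The estimated biological variation was above the trend for genes of like abundance in 9 of 10. The share of all genes above that trend was not computed. Without nicotine replicate 2 the median of the 10 genes was 0.35 and that of all genes 0.23. Per1 and Per2 then had 0.93 and 0.76, whereas Dbp fell to 0.32 and Tef to 0.25.

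**Figure D5:**
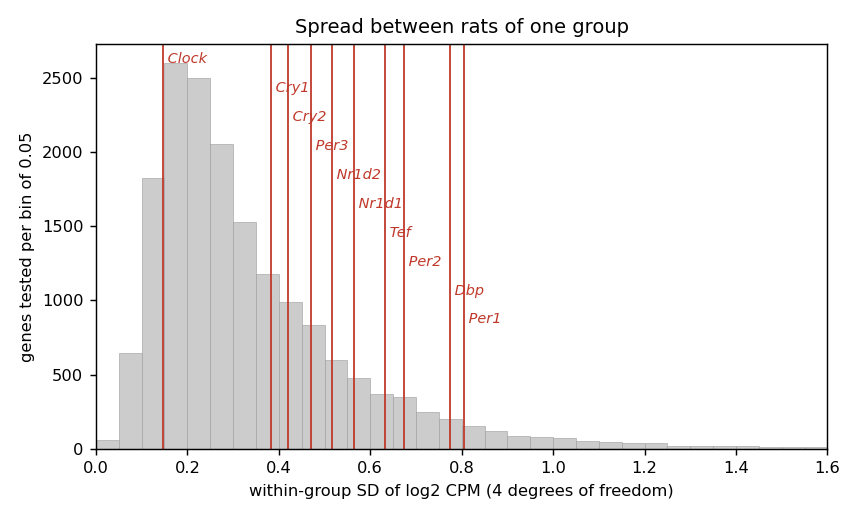
Number of genes tested (y axis) by the SD of log2 CPM within groups (x axis, bins of 0.05, 4 degrees of freedom), with the 10 clock genes as vertical lines; 47 genes lie beyond the axis limit of 1.6. Clock lies left of the median of 0.27 and the other 9 to the right, up to 0.81 for Per1.

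Other values stood apart in nicotine replicate 2 as well, and their part in the clock values was not tested. Gh1 was highest there, and Prl was lowest there, at 17547 CPM. Lhb, the beta subunit of luteinizing hormone, held 216, 820 and 223 CPM in nicotine replicates 1, 2 and 3. In control replicates 1, 2 and 3 it held 154, 75.6 and 125 CPM. The groups did not overlap for Lhb, 1 of the 9 endocrine markers, and 11.3% of all genes tested did not overlap. The 9 endocrine markers summed to 114070 to 176660 CPM in the nicotine libraries and to 146320 to 159920 CPM in the control libraries, with 6 higher, 3 lower and 0 called. The 7 blood markers summed to 2529 CPM in nicotine replicate 2 and to 4113 and 7842 CPM in the other nicotine libraries, against 6732 to 14227 CPM in controls. All 7 were lower with nicotine by log2 fold change and 0 were called, and the groups did not overlap for 1 of the 7. Hbb, Hba-a1 and Alas2 were lowest in nicotine replicate 2. S100a8, S100a9, Camp and Ngp were lowest in control replicate 2, at 1.02, 3.92, 0.87 and 0.44 CPM.

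Markers of vessels, connective tissue and the intermediate lobe were read in the same way. The 5 smooth muscle and pericyte markers summed to 41.1 to 187 CPM with nicotine and 34.3 to 52.4 CPM in controls. By log2 fold change all 5 were higher. Tagln alone held 138 CPM in nicotine replicate 3. It held 15.1 and 10.6 CPM in nicotine replicates 1 and 2 and 14.6 to 32.4 CPM in controls. The 4 endothelial markers were all higher, with sums of 134 to 218 CPM against 103 to 135 CPM. The 4 fibroblast and meningeal markers were all lower, with sums of 239 to 420 CPM against 510 to 687 CPM. The 2 intermediate lobe markers, Pax7 and Pcsk2, summed to 372 CPM in control replicate 3 and to 98.9 to 184 CPM in the other libraries. The groups did not overlap for 1 of 5 smooth muscle and pericyte, 2 of 4 endothelial and 3 of 4 fibroblast and meningeal markers. For the intermediate lobe it was 0 of 2, and 11.3% of all genes tested did not overlap. None of these lists held a called gene in edgeR, and their part in the clock values was not tested.

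Genes that respond to acute stimuli were read in the same libraries. Of 10 immediate early genes 3 were higher and 7 lower with nicotine, and their sum was 675 CPM in control replicate 1 and 247 to 354 CPM elsewhere. Fos stood at 120 CPM in nicotine replicate 2, 114 in control replicate 1 and 92.7 in control replicate 3, and at 26.1 to 29.0 CPM in the other libraries. Control replicate 2, where Per1 and Per2 were highest, held 28.2 CPM of Fos. Other genes of the list ordered the libraries differently, with Nr4a1 lowest in nicotine replicate 2 and Atf3 highest in control replicate 2. On the log2 scale the 10 genes lay on average -0.07, -0.22 and -0.35 from their means in nicotine replicates 1, 2 and 3. In control replicates 1, 2 and 3 the same average was 0.70, -0.09 and 0.03. Of 8 genes induced by glucocorticoids 3 were higher and 5 lower. Fkbp5, a target of the glucocorticoid receptor, stood at 60.6, 101 and 69.5 CPM in nicotine replicates 1, 2 and 3. In control replicates 1, 2 and 3 it stood at 56.3, 52.4 and 54.6 CPM, so the groups did not overlap. Fkbp5 was the only 1 of the 8 without overlap, and 11.3% of all genes tested did not overlap. Klf9 was also highest in nicotine replicate 2, at 53.6 CPM. Tsc22d3 and Ddit4 were lowest there, at 82.7 and 66.0 CPM, and for the rest of the 8 genes other libraries were the extremes. Of 5 genes that respond to temperature, such as Cirbp and Rbm3, 3 were higher and 2 lower. None of these genes was called in edgeR, and their part in the clock values was not tested.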

How the data were processed

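Pituitary RNA of 6 rats was measured by paired-end, strand-specific RNA-seq. Per the labels and the study's methods, the authors mapped reads to rn7 with HISAT2 2.1.0 and deposited whole-number counts per gene symbol from featureCounts on the UCSC ncbiRefSeq annotation. The strand setting, the treatment of reads with several places and the featureCounts version are not given in the sources used here. Tables of the authors' own comparisons were not used.

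The deposited counts were tested in R 4.3.3 with edgeR 4.0.16 (quasi-likelihood, TMM, filterByExpr, Benjamini-Hochberg adjustment over 17292 genes, no covariate). Calls used the study's thresholds, 0.1 for the adjusted p and 1.5 for the fold change. Log2 CPM used a prior count of 2. Totals of 28318383 to 85977002 counts per library set the precision, and standard errors of the contrast named as counting error cover counting alone.

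The members and lists were chosen with earlier results of these data known. The named genes were all members, the listed clock, output and overlapping genes (2 listed clock genes are not reported here, and the counts leave them out), the 3 genes most and least correlated with Dbp above a mean of 10 CPM, and markers a sentence turns on. The contrast, spread and correlations are descriptions. Motifs were counted in RefSeq promoters of GRCr8. Scripts were checked on simulated data. Alternatives were DESeq2 1.42.0, limma 3.58.1 voom, other scalings, filters and prior counts, thinning, a replicate block and leaving out each library. Replicate numbers did not pair the samples.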

Additional observations from a re-analysis of the deposited data

How the results depend on the processing

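No alternative called any of the 10 clock genes or the 15 other clock genes. Over all genes, the count of calls was 0 in edgeR and 62 with DESeq2, 1 with library sizes alone, 2 with no filter, 1 with limma voom and sample quality weights, 1 after thinning and 2 with the replicate number as a block, and from 0 to 9 when a library was left out (9 without nicotine replicate 3, 4 without control replicate 2 and 1 without nicotine replicate 2). The cause was not tested. Samples with the same number did not deviate together (r 0.03, -0.20 and -0.08 for numbers 1, 2 and 3), so the block rests on a shared number only. Among 13 clock genes followed through 14 alternatives, 157 of 182 comparisons kept direction and side of the thresholds, 25 turned sign, and 0 passed the thresholds. With voom, which weights libraries, log2 fold changes turned to 0.29 for Arntl, -0.39 for Ciart, 0.031 for Cry1, -0.16 for Cry2, -0.33 for Dbp and -0.37 for Tef. Library sizes alone gave 0.037 for Nr1d2, and the block gave -0.083 for Npas2 and -0.026 for Tef. Leaving out a library gave log2 fold changes from -0.51 to 0.39 for Arntl, -0.63 to 0.93 for Ciart, -0.24 to 0.28 for Cry1, -0.16 to 0.38 for Cry2, -0.52 to 0.65 for Dbp, -0.54 to 0.57 for Npas2, -0.54 to 0.21 for Nr1d2, -1.04 to 0.00039 for Per1, -0.52 to 0.43 for Tef and, with no change of sign, 0.0089 to 0.91 for Per2, 0.05 to 0.50 for Per3 and 0.03 to 0.84 for Nr1d1. The range of the clock contrast was 1.36 to 2.56 and the median spread of the 10 genes 0.35 to 0.61 when a library was left out, both lowest without nicotine replicate 2. With 3 rats per group and standard errors of 0.16 to 0.43, differences of the size seen for Nr1d1 or Per1 could not be told from the spread between rats.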

Other observations

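The ratio of Per1 to Per2 CPM was 2.51, 1.89 and 1.94 in the libraries labelled nicotine and 4.13, 4.61 and 3.91 in those labelled control. Of 45 pairs among the 10 clock genes, this was the 1 pair whose ratio did not overlap between the groups. The pairs share 10 genes, and the share over ratios of all genes was not computed. Among single genes tested, 11.3% did not overlap, which is not a measure of ratios. Since the pair was picked with its values in view, no test is given. The ratio is of counts not scaled by gene length and serves only to compare libraries.

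In the whole table the genes closest to Dbp over the 6 libraries, among 9726 genes with a mean of at least 10 CPM, were Slc39a9, a zinc transporter gene (r 0.997), Galc, which encodes a lysosomal galactosidase (r 0.99), and Tef (r 0.99). Slc39a9 stood at 68.7, 93.9 and 62.4 CPM with nicotine and 77.8, 71.3 and 67.4 CPM in controls, a much narrower range than that of Dbp. Galc stood at 51.6, 85.5 and 45.3 CPM with nicotine and 65.3, 57.0 and 48.2 CPM in controls. The most opposite were Fra10ac1, Sec14l3 and Sox4, at r -0.996, -0.991 and -0.990. Sox4, a transcription factor gene, stood at 51.6, 31.1 and 58.0 CPM with nicotine and 40.2, 46.5 and 56.2 CPM in controls. Nicotine replicate 2 was the extreme library for each of these genes.

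Principal components of the 500 most variable genes were set beside the clock contrast as a description. The first principal component, with 32.6% of their variance, had an r of -0.53 with the contrast. It stood at -13.8, -16.4 and -3.07 in nicotine replicates 1, 2 and 3. In control replicates 1, 2 and 3 it stood at 0.70, 3.80 and 28.7. The groups did not overlap on this component, and control replicate 3 stood apart. The second, with 23.0%, had an r of -0.44 and ran from nicotine replicate 2 (-21.5) to control replicate 2 (15.3).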
